A study of Oryza sativa with 12 samples.

Results

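GA20OX3, which encodes a gibberellin 20-oxidase, and CYP724B1, the DWARF11 gene of brassinosteroid synthesis (LOC4336116 in the gene table), were followed over 4 genotypes of rice. They were chosen by name, as 2 of the 15140 genes with a probe on the array, and each was read by 1 probe whose values no other probe shared. The choice was made because both had stood out in earlier comparisons of the mutants with wild type, so their differences from wild type are given here as a description, without a test. RNA came from dissected inflorescence meristems with a few bracts still attached, taken from plants grown outdoors in soil, and was hybridised to 12 single-colour Affymetrix arrays, 3 per genotype. WT carried neither mutation, fon2-3 and asp1-10 were the single mutant lines, and fon2-3 asp1-fe was the double mutant. The double mutant therefore holds another asp1 allele than the single mutant, and a difference between these lines cannot be told apart from a difference between the alleles. The labels do not give the WT strain, the plants' age or whether replicates came from separate plants, so a p-value here reflects the spread of these arrays alone, which may be technical.

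Gibberellins and brassinosteroids are plant hormones that promote cell elongation, and rice mutants short of either are dwarfs. Gibberellin 20-oxidases carry out late oxidations that lead to the immediate precursors of active gibberellins, 3-oxidases activate these, and 2-oxidases and the P450 enzyme EUI1 inactivate the hormone, which is sensed by the receptor GID1. CYP724B1 is a cytochrome P450 that acts with CYP90B2 on the side chain of brassinosteroid precursors, CYP734A enzymes inactivate brassinosteroids, and BRI1 is the receptor. In shoot meristems, KNOX homeobox proteins are known to hold gibberellin synthesis low in tobacco and Arabidopsis, and rice OSH1 is known to activate CYP734A genes. The FON2 product is a small secreted signal of the CLAVATA type that restrains growth of the meristem, and that of ASP1 is a corepressor of the TOPLESS family.

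Signals are on a log2 scale, so a difference of 1 is a doubling. Array medians ran from 5.51 to 5.60 and correlations between arrays over all 54922 probes from 0.962 to 0.986. Replicate 3 of asp1-10 stood apart from its group, with a mean correlation of 0.975 with the other asp1-10 arrays against 0.980 to 0.985 for every other array with its own group. A signal below 5.55, the median of all values, is called dim here and was not shown to exceed background.

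GA20OX3 was highest in WT, lower in fon2-3 and lowest in both lines with an asp1 allele. It read 7.45, 7.64 and 7.70 on the WT arrays, 7.17, 6.78 and 6.75 in fon2-3, 6.38, 6.31 and 6.42 in asp1-10 and 6.07, 6.41 and 6.75 in the double mutant. All 9 mutant arrays lay below the 3 WT arrays, a pattern that 3.8% of all probes shared. The means were 7.60 (SD 0.134) in WT, 6.90 (SD 0.232) in fon2-3, 6.37 (SD 0.0553) in asp1-10 and 6.41 (SD 0.34) in the double mutant, n = 3 each. Relative to WT the signal was lower by 0.70 log2 units in fon2-3 (difference -0.70, 1.62-fold), by 1.23 in asp1-10 (difference -1.23, 2.34-fold) and by 1.19 in the double mutant (difference -1.19, 2.28-fold), each with SE 0.172. A more negative difference was found for 2.55% of all probes in fon2-3, 0.444% in asp1-10 and 0.772% in the double mutant, ranks that follow from how the gene was chosen.

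CYP724B1 went the other way, lowest in WT and highest in the double mutant. Its signal was 5.58, 6.68 and 5.30 in WT, 7.25, 7.51 and 7.62 in fon2-3, 7.01, 7.27 and 7.44 in asp1-10 and 7.88, 8.05 and 8.47 in the double mutant. All 9 mutant arrays lay above the 3 WT arrays, as they did for 6.43% of all probes, and WT replicate 2 stood 1.11 log2 units above replicate 1, the next of the WT arrays. The means were 5.86 (SD 0.731) in WT, 7.46 (SD 0.192) in fon2-3, 7.24 (SD 0.219) in asp1-10 and 8.13 (SD 0.304) in the double mutant, n = 3 each. The differences from WT were 1.60 in fon2-3 (3.04-fold), 1.39 in asp1-10 (2.61-fold) and 2.28 in the double mutant (4.85-fold), each with SE 0.303. A larger positive difference was found for 0.228% of all probes in fon2-3, 0.319% in asp1-10 and 0.0273% in the double mutant, again ranks tied to the choice of the gene. WT replicate 3 was dim at 5.30, so the folds against WT can be too small, and without WT replicate 2 the difference in the double mutant was 2.69.

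**Figure D1:**
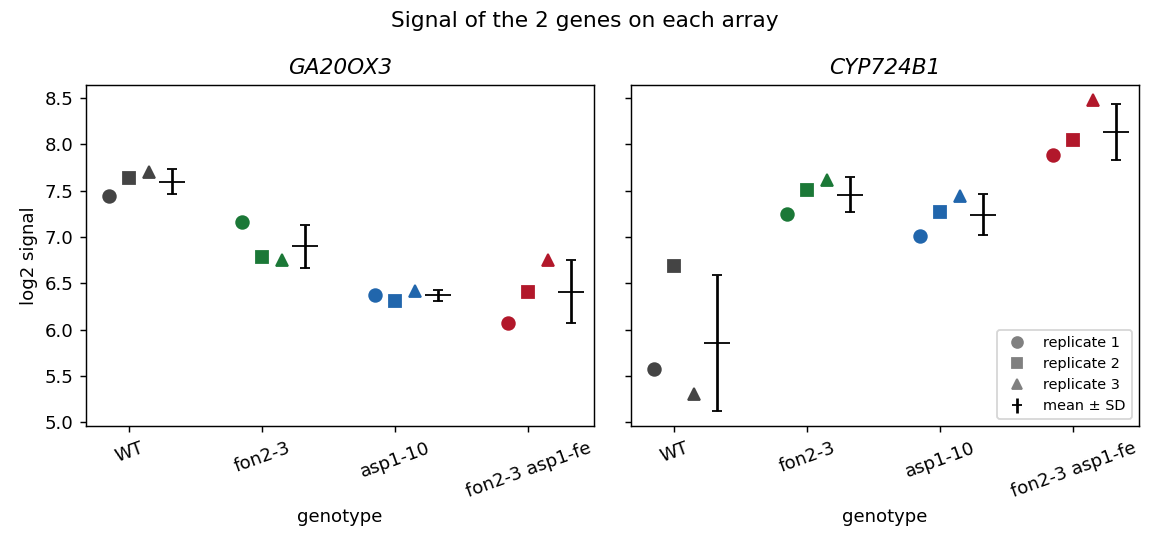
Log2 signal of GA20OX3 and CYP724B1 (vertical axis) on each of the 12 arrays, by genotype, with the symbol giving the replicate number and the bars the mean and SD of 3 arrays. GA20OX3 lies between 7.45 and 7.70 in WT and at or below 7.17 in every mutant array, while CYP724B1 reaches at most 6.68 in WT and at least 7.01 in every mutant array.

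Comparisons among the mutant lines leave the WT means out and were tested with limma over all probes, with Benjamini-Hochberg adjustment. The spread in these tests was estimated over all 4 genotypes, so the WT arrays entered it. GA20OX3 and CYP724B1 passed the threshold of 0.05 in 0 of 6 such comparisons, while 4 of the 6 had an unadjusted p below 0.05. The same test called only 0.0091% of all probes between the double mutant and fon2-3, 0.0146% between the double mutant and asp1-10 and 0.0109% between asp1-10 and fon2-3. An unadjusted p below 0.05 was found for 5.4%, 7.79% and 9.16% of all probes, in the same order.

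For GA20OX3, asp1-10 was 0.53 log2 units below fon2-3 (difference -0.53, SE 0.172, 95% interval -0.91 to -0.15, limma adjusted p = 0.38). All 3 asp1-10 arrays lay below all 3 fon2-3 arrays, as they did for 7.77% of all probes. The double mutant was 0.49 below fon2-3 (difference -0.49, 95% interval -0.87 to -0.11, limma adjusted p = 0.884). These groups were parted by a narrow gap, since the highest double mutant array read 6.749 and the lowest fon2-3 array 6.752. Of all probes, 5.52% had every double mutant array below every fon2-3 array. Between the double mutant and asp1-10 the difference was 0.04 (95% interval -0.34 to 0.42, limma adjusted p = 0.983) and the arrays overlapped. The means fell in the order WT, fon2-3, double mutant, asp1-10, and no pair of neighbours among the mutants passed the adjusted test. Grouped by allele, the 6 arrays of the asp1 lines ran from 6.07 to 6.75 with a median of 6.39, and the 6 arrays without an asp1 allele from 6.75 to 7.70 with a median of 7.31. Grouped by fon2-3, they ran from 6.07 to 7.17 with the mutation and from 6.31 to 7.70 without it. Each group without an allele holds the 3 WT arrays by which the gene was chosen, so these ranges are a description.

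For CYP724B1, the double mutant was 0.89 log2 units above asp1-10 (SE 0.303, 95% interval 0.23 to 1.56, limma adjusted p = 0.514) and 0.68 above fon2-3 (95% interval 0.01 to 1.34, limma adjusted p = 0.911). All 3 double mutant arrays lay above every array of both single mutants. Against fon2-3 alone 4.93% of all probes did so, and against asp1-10 alone 6.89%. The single mutants differed by -0.22 as asp1-10 minus fon2-3 (95% interval -0.88 to 0.45, limma adjusted p = 0.863), and their arrays overlapped. The means fell in the order double mutant, fon2-3, asp1-10, WT, and no pair of neighbours among the mutants passed the adjusted test. Grouped by fon2-3, the 6 arrays with the mutation ran from 7.25 to 8.47 and the 6 without it from 5.30 to 7.44, with overlap. Grouped by asp1, they ran from 7.01 to 8.47 with an allele and from 5.30 to 7.62 without one. Here too the groups without an allele hold the WT arrays by which the gene was chosen.

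**Figure D2:**
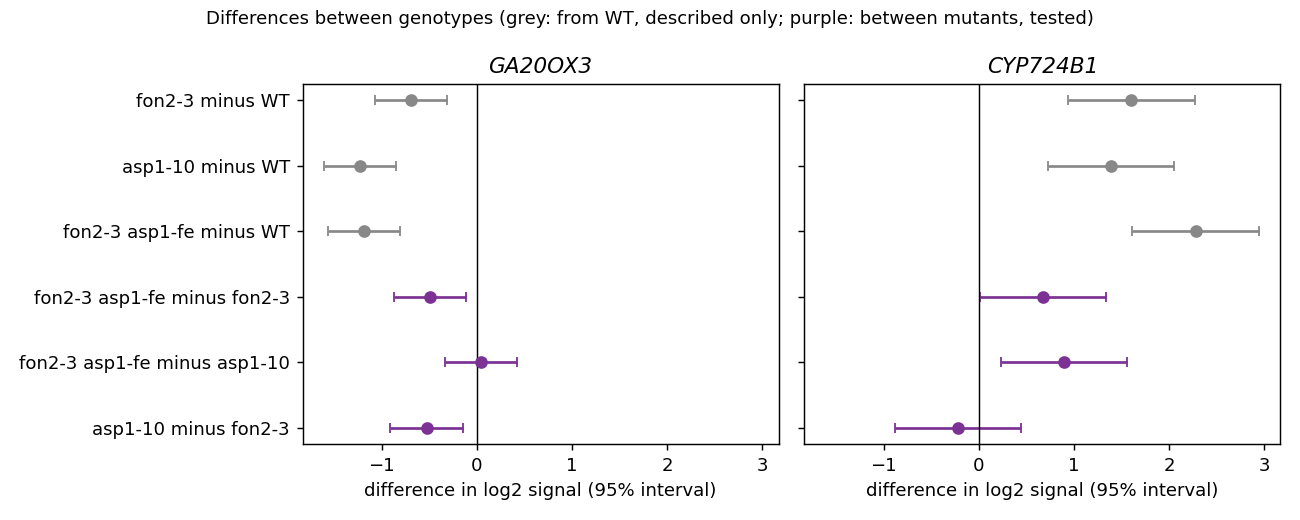
Differences in log2 signal between genotypes (horizontal axis) for GA20OX3 and CYP724B1, with 95% intervals from the linear model over 12 arrays; grey differences from WT are descriptions and purple differences between mutants were tested. The intervals for GA20OX3 between the double mutant and asp1-10 and for CYP724B1 between asp1-10 and fon2-3 include 0.

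The double mutant differed from WT by less than the sum of both single mutant differences for each gene. For GA20OX3 the single differences added up to -1.92 against -1.19 in the double mutant, which is 0.74 (SE 0.244) above the sum. For CYP724B1 they added up to 2.99 against 2.28, which is -0.71 (SE 0.428) from the sum. Put as steps, fon2-3 went with a GA20OX3 difference of -0.70 in the absence of an asp1 allele and of 0.04 beside one, and with a CYP724B1 difference of 1.60 and 0.89. These values share the WT arrays by which the genes were chosen and are given without a test.

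The other genes of gibberellin synthesis and response were measured in part. Of 31 genes listed for the pathway, 11 were paired with a probe in the probe table and 6 were not, among them GA20OX2 and the DELLA gene SLR1. Another 13 were not matched by name in the gene table, and 1 matched several genes. The 3-oxidases, the 2-oxidases, GA20OX1 and GA20OX4 are among those not matched and were not analysed here. Of the 10 besides GA20OX3, limma called SPY higher in fon2-3, GAMYB higher in asp1-10, and SPY and SLRL1 higher in the double mutant, and it called 0 lower. All 6 pathway calls against WT, in both pathways, ended when any 1 WT array was left out. Over all probes the same test called 5.22% in fon2-3, 2.11% in asp1-10 and 4.29% in the double mutant. SPY, a SPINDLY-type repressor of gibberellin signalling, read 8.81, 8.74 and 8.72 in WT against 9.24, 9.18 and 9.33 in fon2-3. The double mutant arrays read 9.36, 9.44 and 9.17, and neither line overlapped WT. Of all probes, 17.2% lay above WT on every fon2-3 array and 16.2% on every double mutant array. SPY rose by 0.49 in fon2-3 (SE 0.114, limma adjusted p = 0.0365). Its rise in the double mutant was 0.57 (limma adjusted p = 0.029), and it was 0.40 above WT in asp1-10 (limma adjusted p = 0.0912).

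SLRL1, a repressor related to the DELLA protein, read 6.44, 6.25 and 6.69 in WT and 7.33, 7.19 and 7.12 in the double mutant, a rise of 0.76 (SE 0.163, limma adjusted p = 0.0336). All 3 double mutant arrays lay above the WT arrays, as they did for 16.2% of all probes, and in asp1-10 the difference was 0.66 (limma adjusted p = 0.0589). GAMYB, a MYB factor of gibberellin response, rose by 0.71 in asp1-10, from 5.43, 5.87 and 5.84 to 6.62, 6.46 and 6.19 (SE 0.158, limma adjusted p = 0.0454). The asp1-10 arrays all lay above the WT arrays, as they did for 12.6% of all probes, and WT replicate 1 was dim. The GAMYB call ended under cyclic loess, median centring, the fit of the groups compared, the replicate block and each of the 12 single-array omissions. The receptor gene GID1 read 8.55 in WT and 8.28, 8.31 and 8.46 in fon2-3, asp1-10 and the double mutant, and D1, a G protein subunit, lay between 8.35 and 8.43 in all genotype means.

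Upstream of the 20-oxidases, CPS1, which catalyses the first committed step of gibberellin synthesis, read 5.59 in WT and was lower by 0.73 in asp1-10 (difference -0.73, limma adjusted p = 0.153), where its mean of 4.86 was dim. The inactivation gene EUI1 and the 13-oxidase gene CYP714B2 were dim in every genotype, with means from 2.34 to 2.66. CYP714B1, another 13-oxidase gene, was 5.73 in WT and 5.39 in the double mutant (limma adjusted p = 0.323). The median difference of the 10 genes from WT was -0.10 in fon2-3, 0.02 in asp1-10 and -0.01 in the double mutant, against medians over all probes of -0.0036, -0.0080 and 0.0031.

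Of 34 brassinosteroid genes, 20 were paired with a probe, 5 were not, and 9 were not matched by name and not analysed here. Of the 19 besides CYP724B1, limma called 0 in fon2-3, where 4 had an unadjusted p below 0.05, CYP734A6 lower in asp1-10 and ILI5 higher in the double mutant. Of all probes 23.2% had an unadjusted p below 0.05 in fon2-3, and 5.22%, 2.11% and 4.29% were called in fon2-3, asp1-10 and the double mutant. The 2 other synthesis genes measured did not pass. CYP90B2, whose enzyme acts with CYP724B1, was dim throughout, at 4.42 (SD 0.164) in WT, 4.85 in fon2-3, 4.48 in asp1-10 and 4.49 in the double mutant. CYP90A3, a P450 gene of the same pathway, read 6.83, 7.10, 6.69 and 7.04 in that order, and its differences from WT had limma adjusted p of 0.405, 0.734 and 0.551.

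CYP734A6, a brassinosteroid-inactivating P450 gene, read 6.26, 6.57 and 6.59 in WT and 5.58, 5.99 and 5.42 in asp1-10. It fell by 0.81 in asp1-10 (difference -0.81, SE 0.169, limma adjusted p = 0.0378), with no overlap. Of all probes, 12% lay below WT on every asp1-10 array. CYP734A6 differed by -0.62 in the double mutant (limma adjusted p = 0.0625) and -0.29 in fon2-3 (limma adjusted p = 0.331). CYP734A2, a gene of the same family, read 7.26 in WT and differed from it by 0.24, -0.02 and 0.10 in fon2-3, asp1-10 and the double mutant, and did not pass. ILI5, also known as BUL1, encodes a helix-loop-helix factor of lamina bending and grain length. Its signal was 5.43, 6.16 and 6.69 in WT and 7.30, 8.44 and 7.54 in the double mutant, a rise of 1.67 (SE 0.414, limma adjusted p = 0.0477), and in asp1-10 it was 1.66 above WT (limma adjusted p = 0.0623).

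Receptor and signalling genes of the brassinosteroid pathway had smaller differences. BRI1 read 7.96 in WT, 8.41 in fon2-3 (difference 0.46, limma adjusted p = 0.0686), 8.08 in asp1-10 and 8.30 in the double mutant. The co-receptor gene SERK1 lay between 9.89 and 10.15, the repressor kinase gene GSK2 between 9.59 and 9.92, and the transcription factor gene BZR1 between 7.45 and 7.73 in the genotype means, and none of these passed. BU1, IBH1, BLE3, BRL1 and BRL2 were dim in every genotype. The median difference of the 19 genes from WT was 0.23 in fon2-3, -0.07 in asp1-10 and 0.10 in the double mutant.

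Taking both pathways without GA20OX3 and CYP724B1, limma called 1 of 29 genes in fon2-3, 2 in asp1-10 and 3 in the double mutant. These are 3.45%, 6.9% and 10.3% of the 29, from counts too small to set against the shares of all probes called. Leaving out single arrays changed the calls over all probes as well, from 2866 to between 1 and 4554 in fon2-3, from 1157 to between 163 and 1202 in asp1-10 and from 2358 to between 18 and 3998 in the double mutant. The call of SPY in fon2-3 ended without any 1 of the WT or fon2-3 arrays and without double mutant replicate 1. For asp1-10 the call of CYP734A6 held in 4 of 12 cases, without any 1 fon2-3 array or without asp1-10 replicate 2. In the double mutant 0 of the 3 calls were kept without any 1 of the WT arrays or without double mutant replicate 1 or 2, and 1 without double mutant replicate 3. Among the mutant lines 0 of 29 pathway genes were called, with 1 (double mutant minus fon2-3), 2 (double mutant minus asp1-10) and 8 (asp1-10 minus fon2-3) at an unadjusted p below 0.05. Of all probes 5.4%, 7.79% and 9.16% had such a p, in the same order. When the double mutant's difference from WT was tested against the sum of the single mutants' differences, limma called 0 of the same 29 genes, with 1 at an unadjusted p below 0.05, and 0.0127% of all probes. In asp1-10 minus fon2-3, 17 of the 19 brassinosteroid genes had a negative difference, with a median of -0.23, where 52.5% of all probes did. The 3 most negative were BRL1 at -0.80, a dim probe in both lines, ILI6 at -0.79 and CYP734A6 at -0.52. In the double mutant minus asp1-10, 17 of the 19 had a positive difference, with a median of 0.14. Of all probes, 46.4% had a negative difference there. Both counts rest on the same 3 asp1-10 arrays, of which replicate 3 stood apart, and genes read on the same arrays are not replicates.

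**Figure D3:**
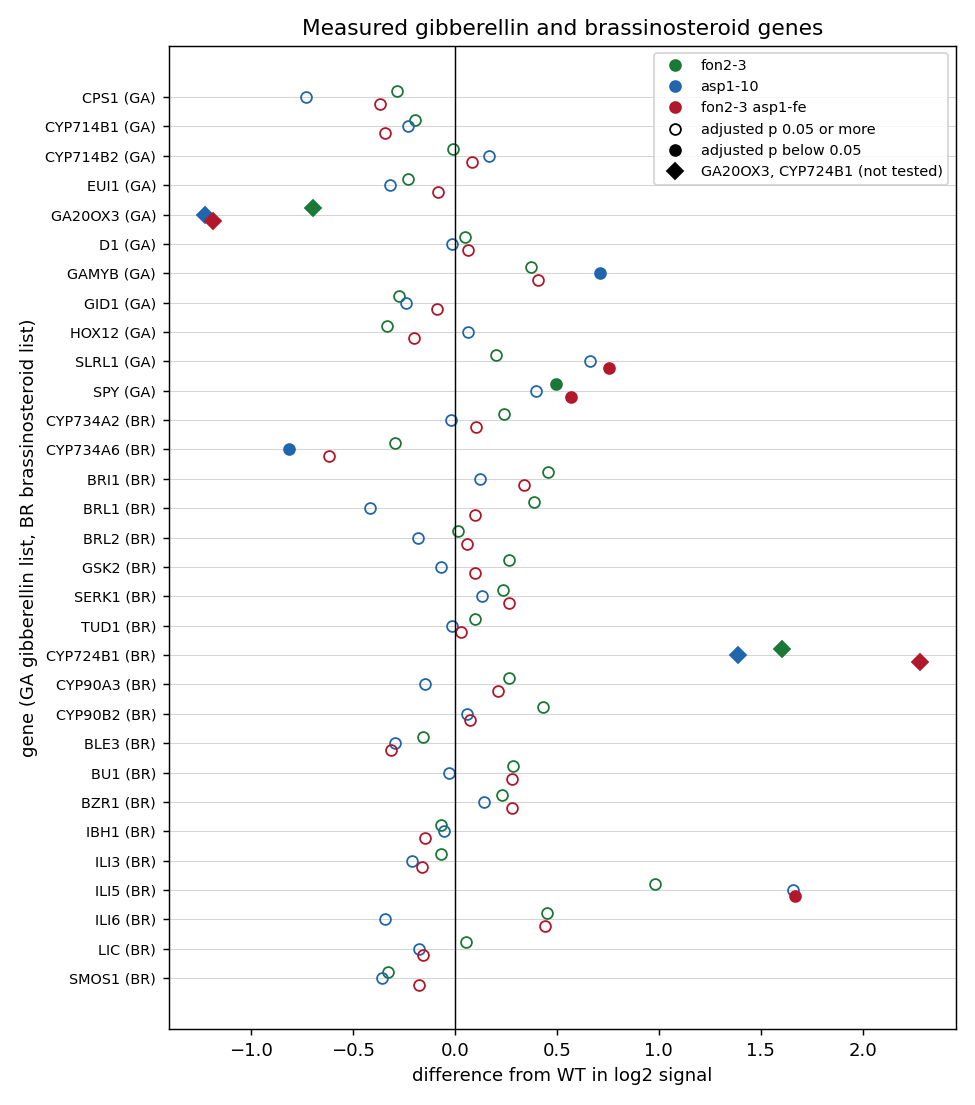
Difference from WT in log2 signal (horizontal axis) of each measured gibberellin (GA) and brassinosteroid (BR) gene in fon2-3, asp1-10 and the double mutant. Filled circles passed the test, open circles did not, and diamonds mark GA20OX3 and CYP724B1, which were not tested; 24 of the 29 other genes lie within 0.6 of WT in all 3 lines.

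The dissected tissue held meristem and some bract, and the markers of both differed between genotypes alongside the 2 genes. The 3 KNOX genes that mark the meristem, OSH1, OSH15 and OSH71, had positive differences in every mutant, and limma called 2 of 3 in fon2-3, 2 of 3 in asp1-10 and 3 of 3 in the double mutant. Their summed signal, as log2, ran from 8.07 to 8.78 in WT, 9.02 to 9.76 in fon2-3, 9.42 to 9.62 in asp1-10 and 9.44 to 9.97 in the double mutant. Of 6 photosynthesis genes that mark leaf or bract, limma called OEE3 and PSAH lower in the double mutant and fon2-3, and PSAH in asp1-10. Their summed signal ran from 8.58 to 8.87 in WT, 7.65 to 7.93 in fon2-3, 7.68 to 8.48 in asp1-10 and 7.51 to 8.11 in the double mutant. CAB1R and CAB2R, the light-harvesting genes that define green tissue, were dim in all genotypes, with means from 2.09 to 2.98. Of 4 floral organ identity genes limma called 0 in any mutant, with 0 at an unadjusted p below 0.05, and MADS3 and MADS58 were dim throughout. In such tissue, fewer cells of a type and less RNA per cell cannot be told apart.

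The leaf or bract markers did not all go the same way. PSAH, a photosystem I subunit gene, had means of 6.18 in WT, 4.98 in fon2-3, 4.97 in asp1-10 and 5.04 in the double mutant. OEE3, a gene of the oxygen-evolving complex, had means of 7.49, 5.59, 6.10 and 5.63 in that order, with an SD of 1.05 in asp1-10. PSAG, another photosystem I subunit gene, had means of 6.53, 6.15, 6.92 and 6.18, and was 0.38 above WT in asp1-10 (limma adjusted p = 0.656). On asp1-10 replicates 1 and 2, whose leaf or bract sums were 8.48 and 8.40, PSAG read 7.17 and 7.11, above its WT arrays, while PSAH and OEE3 lay below theirs.

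The mean leaf or bract sum was 8.71 in WT, 7.80 in fon2-3, 8.19 in asp1-10 and 7.81 in the double mutant, beside GA20OX3 means of 7.60, 6.90, 6.37 and 6.41. GA20OX3 was lowest in asp1-10, whose leaf or bract sum was the highest of the mutants. The mean KNOX sum was 8.53, 9.39, 9.52 and 9.75 in the same order, beside CYP724B1 means of 5.86, 7.46, 7.24 and 8.13. Both were lowest in WT and highest in the double mutant. Between the single mutants, CYP724B1 was higher in fon2-3 and the KNOX sum was higher in asp1-10. In each of the 4 genotypes the KNOX sum was lowest on replicate 1 and highest on replicate 2. The part of tissue makeup in the differences from WT was not tested.

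**Figure D4:**
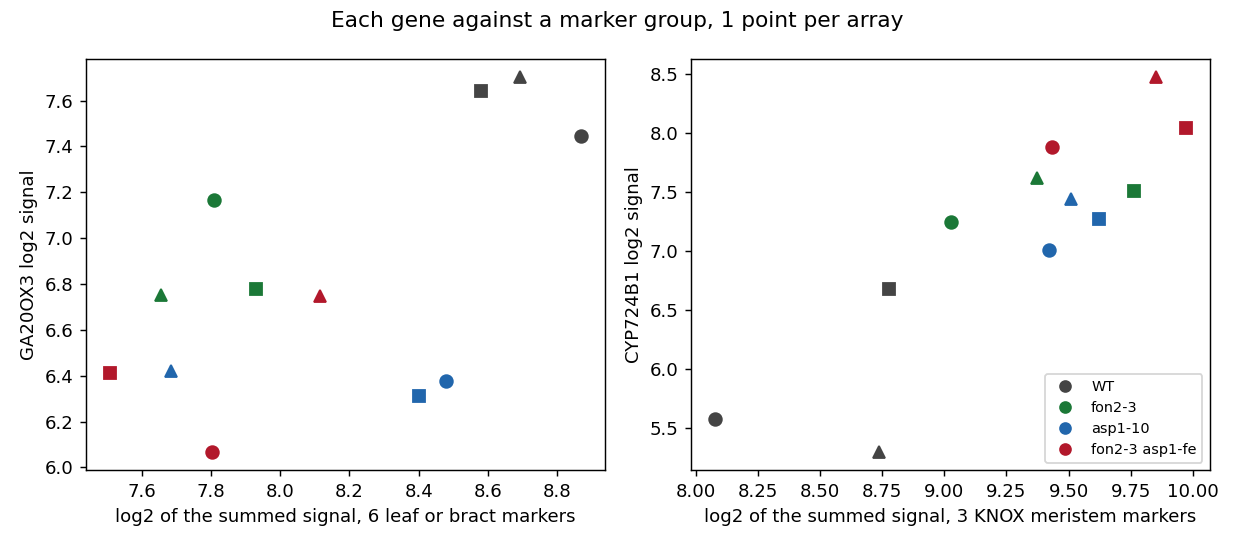
Left, GA20OX3 log2 signal against the log2 summed signal of 6 leaf or bract markers; right, CYP724B1 against 3 KNOX meristem markers; 1 point per array, coloured by genotype, with the replicate shown by the symbol (circle 1, square 2, triangle 3). WT arrays lie at the high end of the leaf or bract sum and the low end of the KNOX sum, and the double mutant has the highest mean of both the KNOX sum and CYP724B1.

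After each genotype's mean was removed, GA20OX3 and CYP724B1 had a Pearson correlation of 0.19 over the 12 arrays. The sign of their correlation between genotypes is fixed by how they were chosen. Among 1739 other named genes, those most like GA20OX3 over the 12 arrays were MYBS1, a MYB factor of sugar response (Pearson r = 0.94), BURP3 (r = 0.90), LA, a gravitropism and tiller angle gene (r = 0.86), RRF, a ribosome recycling factor (r = 0.82), and OsCASPL2D1 (r = 0.82). MYBS1 followed GA20OX3 within genotypes too (r = 0.75), whereas RRF did not (r = -0.28). MYBS1 went from 5.61 in WT to 5.20, 4.93 and 5.10 in fon2-3, asp1-10 and the double mutant, which are dim, and LA, with means from 3.64 to 3.91, and OsCASPL2D1, with means from 4.76 to 5.40, were dim in every genotype. Those most like CYP724B1 were MOF1, a MYB-related gene that acts in the spikelet (r = 0.94), HB2, a class III homeodomain-leucine zipper gene also named OsHox9 (r = 0.92), the auxin repressor gene IAA2 (r = 0.92), DOF1 (r = 0.91) and ARF14, an auxin response factor gene (r = 0.91). Within genotypes these 5 had r from 0.46 to 0.63, and DOF1 was dim in WT at 5.35. MOF1 read 6.59 in WT, 8.43 in fon2-3, 7.83 in asp1-10 and 8.79 in the double mutant, the same order of genotypes as CYP724B1. These correlations are descriptions, since all points share the same arrays and genotypes. The genes were picked by r over the 12 arrays, which includes the deviations within genotypes. Their r within genotypes and their order of genotypes are therefore partly tied to that pick.

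**Figure D5:**
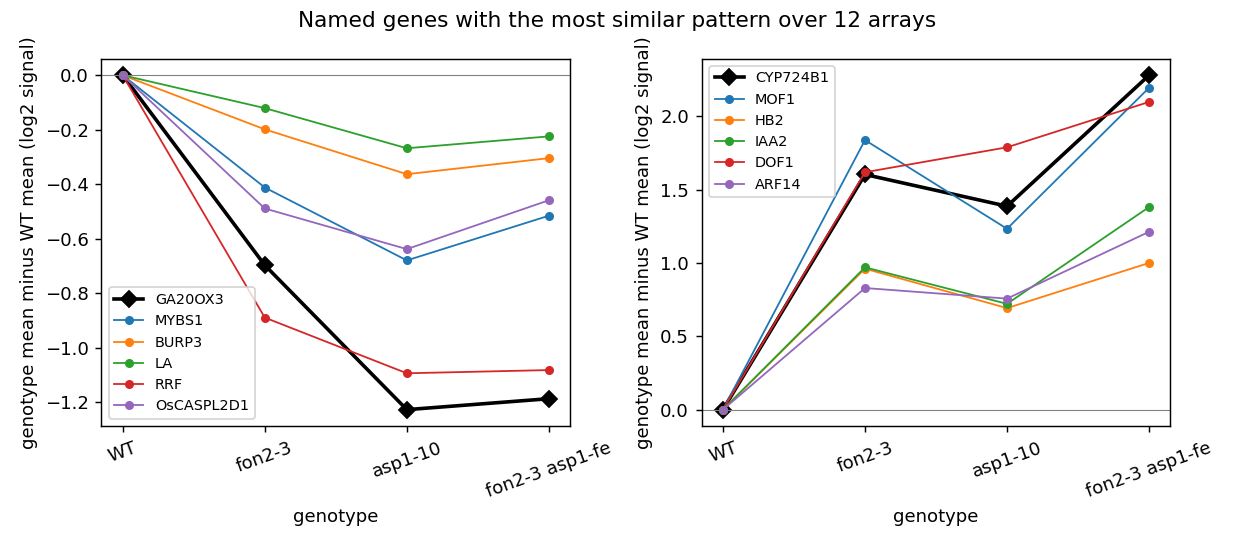
Genotype mean minus WT mean in log2 signal (vertical axis) for GA20OX3, left, and CYP724B1, right, each in black, with the 5 named genes of most similar pattern over the 12 arrays in colour. On the right all 6 genes have their highest mean in the double mutant, and on the left all 6 lie below WT in every mutant.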

How the data were processed

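RNA from 12 inflorescence meristem samples was measured on Affymetrix arrays. Per the submitters' processing notes the authors used Affymetrix Expression Console 1.3; how the signals were corrected, normalized and summarised, and to which log base, is not given in the sources used here. From their range the deposited values were treated as log2 signals. Of 54922 probes, 15829 had 1 gene symbol, 440 several and the rest none in the probe table; genes were named by Entrez number through the gene table of assembly ASM3414082v1, and the probe with the highest mean stood for a gene. Positions are left out because the files name no build.

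A model with a mean for each genotype was fitted over the 12 arrays (limma 3.58.1 with lmFit and eBayes, R 4.3.3; 8 residual and 3.22 prior degrees of freedom). Two-sided p-values were adjusted over all probes of a comparison by the Benjamini-Hochberg method, threshold 0.05. The fit was tested on simulated data, and the outcome is not reported here. With 3 arrays against 3 the smallest exact two-sided permutation p is 0.1, so none was run, and the number of arrays limits the precision.

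GA20OX3, CYP724B1 and the pathway and marker lists were chosen with earlier results of these data known; 8 list genes were added from the gene table's names once the data were at hand. Of 65 list genes 42 matched the gene table by symbol or synonym, on the chromosome of the listed locus where one was given, and 31 of those were paired with a probe. Genes were named in the text where they were GA20OX3 or CYP724B1, a called pathway gene, a gene of a described role, or 1 of the 5 most correlated named genes.

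Alternatives were cyclic loess between arrays, median centring, fitting only the groups compared, a trended robust prior, a replicate block, leaving out dim probes, 1 probe per named gene, and omitting the arrays 1 at a time. Neither gene had another probe. The replicate numbers were not taken to pair the samples.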

Additional observations from a re-analysis of the deposited data

How the results depend on the processing

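GA20OX3 and CYP724B1 kept the direction of their differences from WT under cyclic loess, under median centring and with each array left out. Without single arrays the GA20OX3 differences ran from -0.83 to -0.62 in fon2-3, -1.30 to -1.17 in asp1-10 and -1.36 to -1.02 in the double mutant, and those of CYP724B1 from 1.33 to 2.02, 1.11 to 1.80 and 2.004 to 2.69. No test of these genes between mutant lines passed under any alternative run. The small difference of GA20OX3 between the double mutant and asp1-10 changed sign without double mutant replicate 3 (adjusted p = 0.889), and its adjusted p ran from 0.847 to 0.99999 with single arrays left out.

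The count of called pathway genes was less stable. In fon2-3 it was 1, and 0 with cyclic loess, in the fit of the groups compared or with the replicate block, and 2 with the trended robust prior, without dim probes or with 1 probe per named gene, with SPY and BRI1 called in those 3. In asp1-10 it was 2, and 1 with cyclic loess or median centring (CYP734A6), 0 in the fit of the groups compared or with the replicate block, 4 with 1 probe per named gene and 5 without dim probes. In the double mutant it was 3, and 2 with cyclic loess or in the fit of the groups compared. It was 4 with 1 probe per named gene or without dim probes, and 0 with the replicate block. Counts over all probes moved too: 2866, 1157 and 2358 in these comparisons became 2647, 2 and 2240 in the fit of the groups compared, 1475, 508 and 1147 with the block and 4718, 2507 and 4191 without dim probes. Same-numbered arrays had correlations of deviations from -0.18 to 0.11, not all over 0.1. Only 3 of 12 arrays correlated best with their own number, so over all probes this check gave no hint of pairing. The KNOX sum, by contrast, had the same order of replicates in each of the 4 genotypes. Leaving out single arrays gave 0 to 2, 0 to 2 and 0 to 4 calls. Between mutant lines the count stayed at 0. The cause of these shifts was not tested.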
